A study of Mus musculus with 12 samples.

Results

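The genes described here encode the nuclear part of the mitochondrial respiratory chain and ATP synthase, measured in mouse T helper 17 (Th17) cells. They were chosen by symbol: protein-coding genes whose names begin with Nduf, Uqcr, Cox4, Cox5, Cox6, Cox7, Cox8 or Atp5, and Sdha, Sdhb, Sdhc, Sdhd, Cyc1 and Cycs. Of 104 symbols that matched, 93 were protein-coding, and 88 of these had a mean of at least 1 FPKM (a level scaled by gene length and by library depth) in at least 1 group. All 88 reached that level in every group, and they are 88 of the 13511 genes that were tested and of the 29522 genes in the files. By complex they comprise 36 genes of complex I, 8 assembly factors of complex I, 4 of complex II, 9 of complex III, cytochrome c, 13 of complex IV and 17 of complex V.

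The respiratory chain sits in the inner mitochondrial membrane and passes electrons from NADH and succinate to oxygen while protons are pumped out. Complex I (NADH dehydrogenase) and complex II (succinate dehydrogenase) feed electrons to ubiquinone, complex III passes them to cytochrome c, complex IV (cytochrome c oxidase) reduces oxygen, and complex V (ATP synthase) uses the proton gradient to make ATP. Most subunits are encoded in the nucleus and the rest in the mitochondrial genome, and the mitochondrially encoded ones were not analysed here. T cells enlarge their mitochondrial mass after activation, and Th17 cells use both glycolysis and respiration.

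Naive CD4+ T cells were isolated magnetically from spleens of C57BL/6J mice, a wild-type strain, stimulated by CD3 and CD28, and cultured in a medium for Th17 differentiation; total RNA was sequenced. All 4 groups share that strain, genotype and culture, and each has 3 libraries: vehicle, ILA at 200 uM, GSK805 at 0.5 uM, and GSK805+ILA at those same doses. ILA is taken here to be indole-3-lactic acid, a product of bacterial tryptophan metabolism, since the labels do not spell it out. GSK805 is a small molecule known to inhibit Th17 differentiation. The replicates are labelled biological, but no animals, ages or sexes were named, so p-values gauge only how far these samples differ among themselves, which may be partly technical.

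The number of reads a library held, recovered from its FPKM, was 17840000 to 23490000. Markers of Th17 cells (8 genes, among them Cd3e, Cd4, Il17a, Il17f, Il23r and Ccr6) were each at 1 FPKM or more in vehicle and ILA libraries, and 6 of 8 were in the other groups. Their summed level was 1303 to 1592 FPKM in vehicle libraries, 598 to 646 in ILA, 441 to 490 in GSK805 and 311 to 336 in GSK805+ILA, so it moved with the groups. That sum is nearly all Il17a and Il17f (means of 756 and 624 FPKM in vehicle), while Cd4 and Cd3e were higher with ILA, at means of 117 and 37.5 FPKM against 42.4 and 19.0 FPKM in vehicle. Of the markers of other cells, the CD8 and NK list (4 of 5 listed genes in the files, nearly all of it Cd8b1) summed to 4.07 to 5.47 FPKM in vehicle, 1.24 to 1.61 in ILA, 3.84 to 4.43 in GSK805 and 1.83 to 2.00 in GSK805+ILA. The stromal list (3 of 4 listed genes) summed to 4.13 to 4.73, 10.1 to 11.4, 3.45 to 3.61 and 6.50 to 7.30 FPKM in the same order, nearly all of it Pecam1, while Cdh5 was listed at 0 in 11 of 12 libraries and Col1a1 was at most 0.0939 FPKM. The myeloid list (7 of 8) summed to 4.14 to 5.05, 2.42 to 3.31, 3.78 to 4.12 and 3.36 to 3.69 FPKM in that order. The B cell list (4 of 5) summed to 1.93 to 2.28, 2.41 to 2.83, 1.50 to 2.24 and 1.72 to 1.90 FPKM. Vehicle and ILA libraries do not overlap in either list. Replicate 2 of ILA stands apart by the haemoglobin genes Hbb-bs (23.3 FPKM) and Hba-a1 (18.2 FPKM), which were at most 0.0587 FPKM in the other libraries. The part of these differences in the results below was not tested, and in bulk RNA fewer cells of a type and less RNA per cell cannot be told apart.

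In these cells the respiratory chain genes were abundant. Their median over all libraries was 29.6 FPKM, against 7.25 FPKM for the tested genes. The highest 5 by mean FPKM were Cox6a1 (184 FPKM), Atp5b (182), Cox8a (179), Cox4i1 (168) and Atp5a1 (163), which encode subunits of complexes IV and V. FPKM is a level per gene length, so levels can be set side by side between genes, but only roughly. The lengths that gave whole reads cover all annotated exons of a gene, from 419 bases for Ndufa1 to 8086 for Ndufs1. Differences between genes thus also depend on the annotation. Within complex I the mean level ran from 6.18 FPKM for Ndufc1 to 80.1 FPKM for Ndufa1, with a median of 21.5. The complex I assembly factors, which help build the complex and then leave it, were lower, from 3.64 FPKM (Ndufaf2) to 13.2 FPKM (Ndufaf4). Complex II ran from 14.2 (Sdhc) to 48.7 FPKM (Sdhd), and complex III from 29.4 (Uqcr11) to 95.2 FPKM (Uqcr10). Complexes IV and V had the widest ranges, 1.50 (Cox6b2) to 184 FPKM and 1.73 (Atp5s) to 182 FPKM.

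Several subunits of complex IV have paired isoforms, 1 found broadly and 1 restricted to some tissues. The broad form was the abundant one in each pair. Cox4i1 had a mean of 168 FPKM, and its lung form Cox4i2 0.153 FPKM. Cox6a1 had 184 FPKM and the heart and muscle form Cox6a2 0.155 FPKM, and Cox6b1 had 89.4 FPKM against 1.50 FPKM for the testis form Cox6b2. Of the subunit 7A genes, Cox7a2l had 147 FPKM, Cox7a2 34.7 FPKM and the muscle form Cox7a1 1.77 FPKM. Cox8a had 179 FPKM against 0.0468 FPKM for Cox8b, and Ndufa4, counted here with complex I by its name though its protein works in complex IV, had 34.4 FPKM against 0.131 FPKM for Ndufa4l2. The genes just inside the limit of 1 FPKM were Cox6b2, Atp5s and Cox7a1. Below the limit was Ndufb2 (0.478 FPKM over all libraries, in a locus that overlaps Braf). Cox6a2, Cox4i2, Ndufa4l2 and Cox8b were far below it, at 0.155 FPKM or less. At the lowest count in any library, a member had 11 reads (Cox7a1), and the median over members was 1009 reads.

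**Figure D1:**
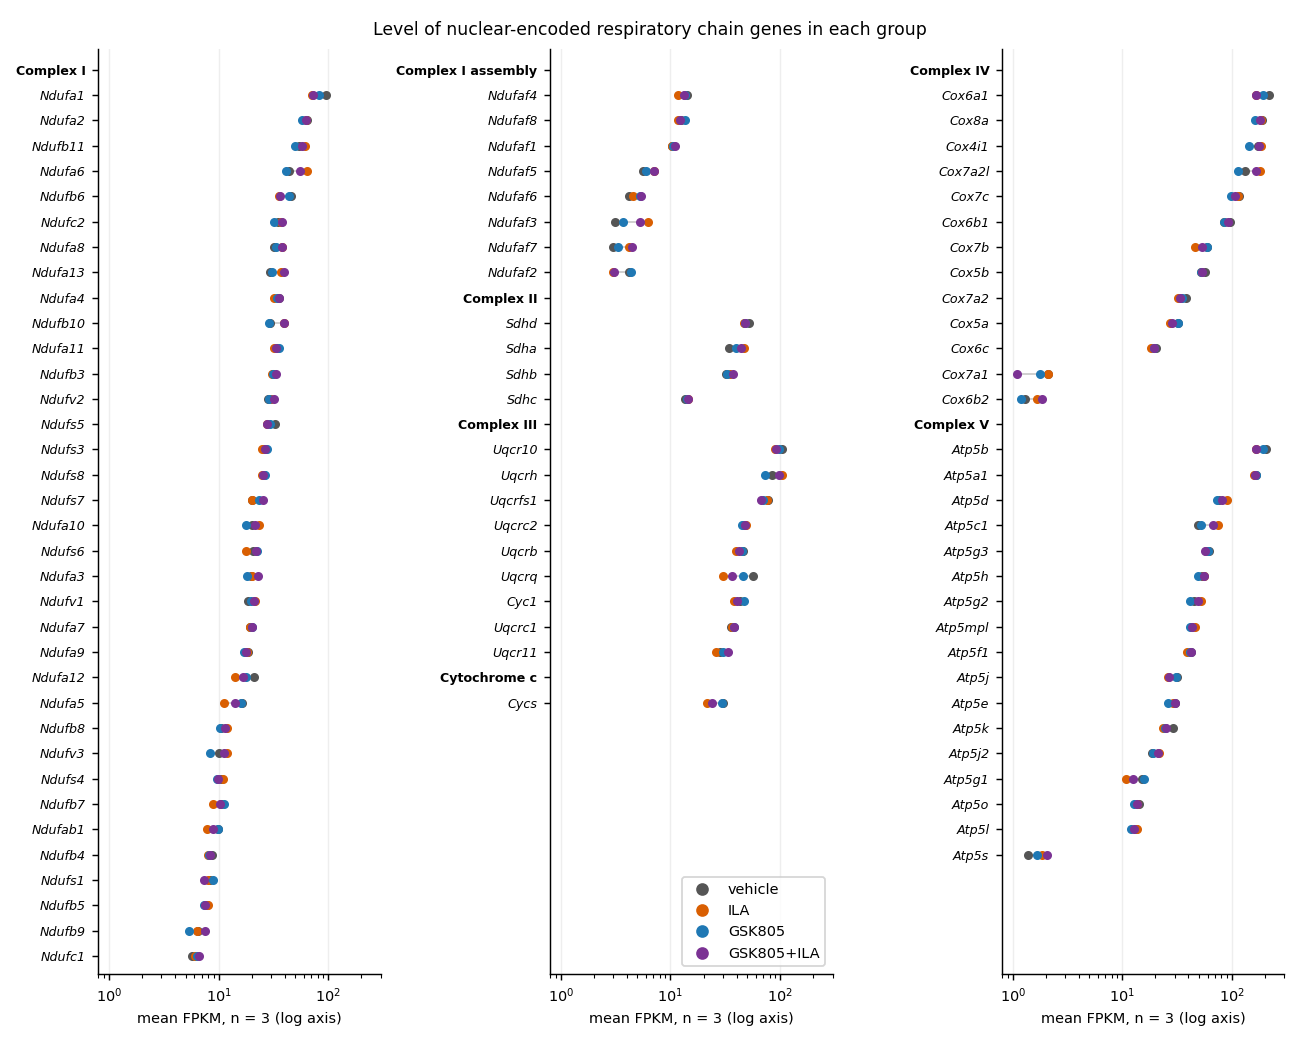
Mean FPKM of the genes in the 4 groups (1 of the 88 is not shown) (log axis, n = 3 libraries a group), by complex and sorted by the mean over all libraries. The 4 group means of a gene lie close together compared with the range between genes, which spans 1.50 to 184 FPKM.

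Promoters of many respiratory genes are known to hold sites for NRF1, for the ETS factor GABP (NRF2) and for YY1. Promoter sequences, which run from before to shortly after the transcription start, were found in RefSeq (GRCm38.p6) for 74 of the 88 genes, in 79 promoters. The NRF1 consensus, a near-palindrome of alternating G and C around a central A, searched on both strands, occurred in 20 of the 79 (25.3%), against 4.60% of all 32851 mouse promoters in the table and 10.5% of the 10920 promoters of tested genes. The ETS motif CCGGAAG was in 22.8% of the members' promoters (8.86% of all, 19.3% of tested genes), and the YY1 motif in 6.33% (0.633% and 1.69%). A match describes the letters only. Of these promoters 6 follow, 4 from genes that rose with ILA and those of Cox6a1 and Ndufa5, which fell, to show that motifs stand in both. They are written 5′ to 3′ on the strand of the gene, with motif matches in capitals (NRF1 in the top 5, ETS in Cox6a1 and Uqcrh).
Sdha, chr13:74350191-74350490, minus strand: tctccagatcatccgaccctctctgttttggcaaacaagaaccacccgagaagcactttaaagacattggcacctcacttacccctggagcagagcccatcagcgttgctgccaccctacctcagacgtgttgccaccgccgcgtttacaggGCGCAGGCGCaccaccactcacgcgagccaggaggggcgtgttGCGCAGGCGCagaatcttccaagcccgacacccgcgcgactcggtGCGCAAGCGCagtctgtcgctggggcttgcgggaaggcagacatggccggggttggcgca
Atp5c1, chr2:10080383-10080682, minus strand: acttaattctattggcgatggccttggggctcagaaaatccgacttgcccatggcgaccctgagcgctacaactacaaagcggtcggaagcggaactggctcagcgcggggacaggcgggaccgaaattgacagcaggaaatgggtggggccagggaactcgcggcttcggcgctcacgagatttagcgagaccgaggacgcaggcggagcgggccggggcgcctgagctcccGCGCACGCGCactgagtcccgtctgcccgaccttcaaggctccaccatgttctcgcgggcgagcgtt
Ndufa6, chr15:82354242-82354541, minus strand: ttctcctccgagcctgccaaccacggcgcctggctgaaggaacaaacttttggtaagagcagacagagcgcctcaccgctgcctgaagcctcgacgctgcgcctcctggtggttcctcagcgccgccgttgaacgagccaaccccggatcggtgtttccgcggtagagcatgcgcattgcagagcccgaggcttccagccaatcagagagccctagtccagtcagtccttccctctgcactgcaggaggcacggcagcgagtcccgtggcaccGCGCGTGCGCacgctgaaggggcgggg
Cox6a1, chr5:115348909-115349208, minus strand: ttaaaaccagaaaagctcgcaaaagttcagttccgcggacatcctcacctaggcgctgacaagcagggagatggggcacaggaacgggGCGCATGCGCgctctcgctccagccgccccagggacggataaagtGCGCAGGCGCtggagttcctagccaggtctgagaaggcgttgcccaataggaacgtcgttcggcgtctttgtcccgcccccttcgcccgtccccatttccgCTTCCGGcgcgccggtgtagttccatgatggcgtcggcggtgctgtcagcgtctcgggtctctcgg
Ndufa5, chr6:24527641-24527940, minus strand: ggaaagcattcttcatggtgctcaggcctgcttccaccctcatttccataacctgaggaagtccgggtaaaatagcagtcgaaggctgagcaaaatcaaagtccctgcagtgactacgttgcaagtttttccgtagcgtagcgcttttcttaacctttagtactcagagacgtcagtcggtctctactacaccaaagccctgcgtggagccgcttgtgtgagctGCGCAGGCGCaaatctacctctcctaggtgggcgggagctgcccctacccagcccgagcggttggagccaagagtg
Uqcrh, chr4:116075021-116075320, minus strand: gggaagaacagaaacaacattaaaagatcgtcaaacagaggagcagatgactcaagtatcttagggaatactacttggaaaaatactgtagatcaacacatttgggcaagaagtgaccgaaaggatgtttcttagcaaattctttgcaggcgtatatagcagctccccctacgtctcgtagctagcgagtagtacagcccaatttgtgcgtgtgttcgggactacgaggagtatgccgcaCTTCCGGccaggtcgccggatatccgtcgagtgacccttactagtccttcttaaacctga
The matched NRF1 letters stand at 3 places in the Sdha promoter and at 1 place in those of Atp5c1, Ndufa6 and Ndufa5. Among genes with a promoter, the NRF1 motif was in 5 of 16 that rose with ILA, 5 of 19 that fell and 9 of 39 that did not pass. The ETS motif was in 1 of 16 (Uqcrh), 4 of 19 and 13 of 39 in the same order. For the YY1 motif it was 0 of 16, 1 of 19 and 4 of 39.

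The ILA comparison with vehicle asks what ILA does to these genes under Th17 conditions. With ILA, 17 of the 88 genes rose (19.3%) and 22 fell (25.0%), while 49 did not pass (limma, Benjamini-Hochberg over 13511 genes, adjusted p below 0.05). Among all tested genes, 33.9% rose and 24.0% fell, 57.9% in either direction. The median log2 fold change was -0.02 over the 88 genes and 0.06 over all genes, and the median size of a change, regardless of sign, was 0.17 against 0.30. On the log2(FPKM + 1) scale, which understates the change of low genes, no member changed by 2-fold or more. As a plain ratio of mean FPKM, 1 member did, Ndufaf3 at 2.00. The ILA and vehicle libraries did not overlap for 43 of the 88 (48.9%), against 62.8% of all genes.

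**Figure D2:**
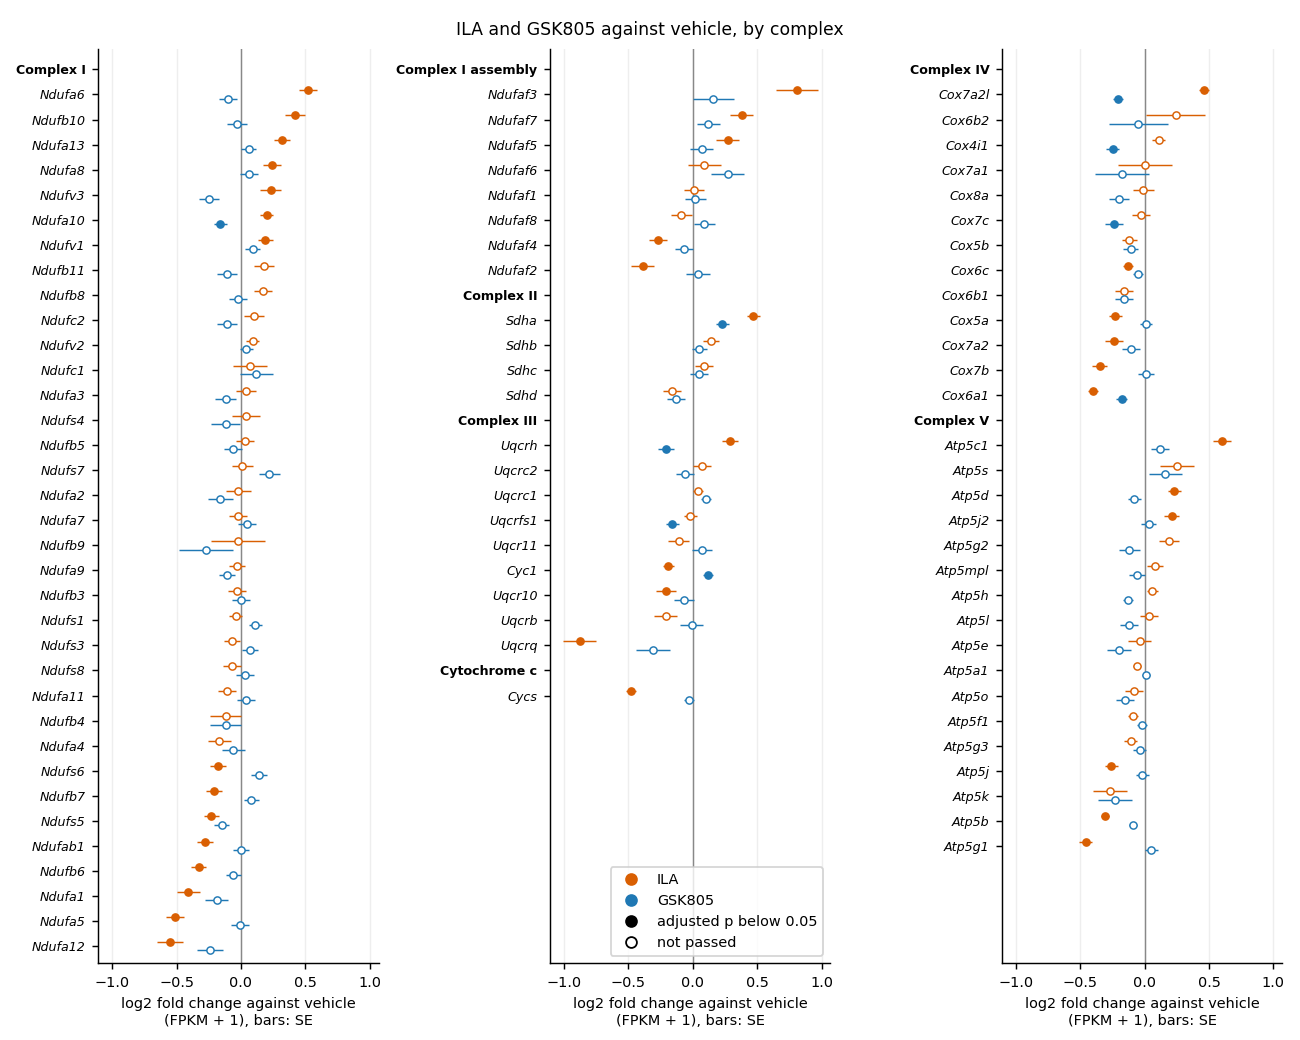
Log2 fold change of FPKM + 1 against vehicle for ILA (orange) and GSK805 (blue), with SE from limma; filled points have an adjusted p below 0.05, and 1 of the 88 genes is not shown. Genes are sorted by the ILA change within each complex. With ILA each complex other than complex II and cytochrome c has filled points on both sides of 0, from -0.88 for Uqcrq to 0.81 for Ndufaf3.

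Of the 36 complex I genes, 8 rose and 8 fell with ILA. Ndufa6, an accessory subunit of the matrix arm, had 41.3, 48.0 and 43.2 FPKM in vehicle libraries and 67.1, 57.8 and 66.9 FPKM in ILA libraries. All ILA values were above all vehicle values, a 1.44-fold rise (log2 0.52, SE 0.07, limma adjusted p = 5.0e-05). Ndufb10, an accessory subunit of the membrane arm, rose 1.34-fold (limma adjusted p = 0.00126). Ndufa12, an accessory subunit, had 20.0, 20.4 and 22.5 FPKM in vehicle and 15.2, 13.4 and 13.5 FPKM with ILA. Those groups do not overlap, and it was 1.46-fold lower (log2 -0.55, SE 0.10, limma adjusted p = 6.3e-04). Ndufa5, also an accessory subunit, fell 1.42-fold, from 15.3, 16.0 and 17.2 FPKM to 11.9, 10.3 and 11.1 FPKM (limma adjusted p = 7.2e-05). Here too every ILA library was below every vehicle library. Ndufa1 fell from 94.6 ± 3.40 to 71.2 ± 6.70 FPKM (SD, n = 3, limma adjusted p = 0.00237).

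Among the 7 nuclear core subunits, which carry the flavin and iron-sulphur clusters of complex I, 2 rose and none fell. The NADH-binding subunit Ndufv1 rose 1.14-fold, though its vehicle and ILA libraries overlap and its adjusted p ran from 0.00478 to 0.709 over the alternative settings. The largest core subunit, Ndufs1, had 8.29 ± 0.565 FPKM in vehicle and 8.04 ± 0.115 FPKM in ILA libraries (SD, n = 3, limma adjusted p = 0.563). The summed level of the 7 was 161 to 173 FPKM in vehicle libraries and 176 to 187 FPKM with ILA, ranges that do not overlap. That sum does not show a rise of each core gene, since 5 of the 7 did not pass. The means of Ndufs1, Ndufs3 and Ndufs8 were lower with ILA and those of the other core genes were not.

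The 8 assembly factors of complex I split as 3 higher and 2 lower with ILA. Ndufaf3 had 3.08, 3.49 and 2.78 FPKM in vehicle and 5.76, 6.18 and 6.76 FPKM with ILA. This was the largest rise among the members, 1.76-fold (log2 0.81, SE 0.16, limma adjusted p = 0.00103). Its gene overlaps Impdh2 on the opposite strand, and whether counting used the strand is not known. Its partner Ndufaf4 fell 1.21-fold, from 14.2 ± 0.701 to 11.6 ± 0.439 FPKM (SD, n = 3, limma adjusted p = 0.00674). Ndufaf7, a methyltransferase, rose 1.30-fold, and Ndufaf2, a relative of Ndufa12 that holds its place during assembly, fell 1.31-fold (limma adjusted p = 0.00316 and 0.00349).

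In complex II, Sdha passed and the other 3 genes did not. Sdha encodes the flavoprotein that oxidises succinate. It had 32.5, 35.5 and 33.5 FPKM in vehicle libraries and 47.2, 48.9 and 45.3 FPKM with ILA. The groups are far apart compared with their spread, a 1.38-fold rise (log2 0.47, SE 0.05, limma adjusted p = 6.4e-06). The iron-sulphur subunit Sdhb and the membrane anchors Sdhc and Sdhd had log2 fold changes of 0.14, 0.09 and -0.16 (limma adjusted p = 0.0887, 0.259 and 0.0901).

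In complex III, 1 of 9 genes rose and 3 fell. Uqcrq, a small accessory subunit of the complex, showed the largest fall among all members. It had 52.6, 62.0 and 55.4 FPKM in vehicle and 29.1, 32.0 and 29.8 FPKM with ILA. The highest ILA value is well under the lowest vehicle value, and the level was 1.84-fold lower (log2 -0.88, SE 0.13, limma adjusted p = 1.5e-04). The hinge protein Uqcrh rose 1.22-fold, from 84.3 ± 5.22 to 103 ± 5.47 FPKM (SD, n = 3, limma adjusted p = 0.00122). Cytochrome c1 (Cyc1) fell 1.14-fold, whereas the Rieske protein Uqcrfs1 (77.6 ± 1.77 against 76.3 ± 1.20 FPKM) and the core protein Uqcrc1 (35.8 ± 1.13 against 36.7 ± 0.776 FPKM, SD, n = 3) did not pass (limma adjusted p = 0.728 and 0.445).

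Cycs, which encodes cytochrome c, the carrier between complexes III and IV and a trigger of apoptosis when released, fell with ILA. Its 3 vehicle libraries had 29.5, 31.2 and 30.0 FPKM and its 3 ILA libraries 21.7, 21.0 and 21.3 FPKM. The spread within each group is small beside the gap, and the fall was 1.40-fold (log2 -0.48, SE 0.04, limma adjusted p = 1.4e-06).

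In complex IV, 1 of 13 genes rose and 5 fell. Cox7a2l, also called SCAF1, tethers complex III to complex IV, and the C57BL/6J strain carries a shorter form of its protein than many other strains. It had 123, 138 and 130 FPKM in vehicle and 184, 181 and 176 FPKM with ILA. This non-overlapping rise was 1.38-fold (log2 0.46, SE 0.04, limma adjusted p = 4.0e-06). Its relative Cox7a2 fell 1.18-fold (adjusted p = 0.0159 by limma, 0.001 to 0.0667 over the alternatives). Cox6a1, the member with the highest mean level, fell from 206, 228 and 217 FPKM to 164, 163 and 165 FPKM, 1.32-fold (log2 -0.40, limma adjusted p = 1.0e-05). Cox7b and Cox5a fell 1.28-fold and 1.17-fold, while Cox4i1, Cox5b and Cox8a did not pass (log2 0.11, -0.12 and -0.01). Cox6b1 and Ndufa4 had log2 fold changes of -0.16 and -0.17, and the low isoforms Cox6b2 and Cox7a1 of 0.24 and 0.00, none of which passed.

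In complex V, 3 of 17 genes rose and 3 fell, and members of the catalytic F1 head moved in opposite directions. Atp5c1, the γ subunit that turns inside the head, had 46.4, 48.8 and 50.2 FPKM in vehicle and 78.2, 72.9 and 71.6 FPKM with ILA. It rose 1.52-fold without overlap (log2 0.60, SE 0.07, limma adjusted p = 1.2e-05). Atp5b, the catalytic β subunit, fell 1.24-fold, from 199, 211 and 205 FPKM to 168, 163 and 165 FPKM (log2 -0.31, limma adjusted p = 1.0e-05). The α subunit Atp5a1 had 165 ± 4.04 and 158 ± 3.29 FPKM and did not pass (limma adjusted p = 0.0878, n = 3). The δ subunit Atp5d rose 1.18-fold. The summed level of the 5 head genes was 525 ± 19.2 FPKM in vehicle and 517 ± 13.4 FPKM with ILA (SD, n = 3). Of the 3 genes for the same c-ring protein, Atp5g1 fell 1.37-fold, from 15.2 ± 0.999 to 10.8 ± 0.252 FPKM (limma adjusted p = 7.9e-06, n = 3), and Atp5g2 and Atp5g3 did not pass. Atp5g1 has a near-identical copy elsewhere at 35.2 FPKM, and so does Ndufa12 at 17.4 FPKM, so their reads may be shared.

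**Figure D3:**
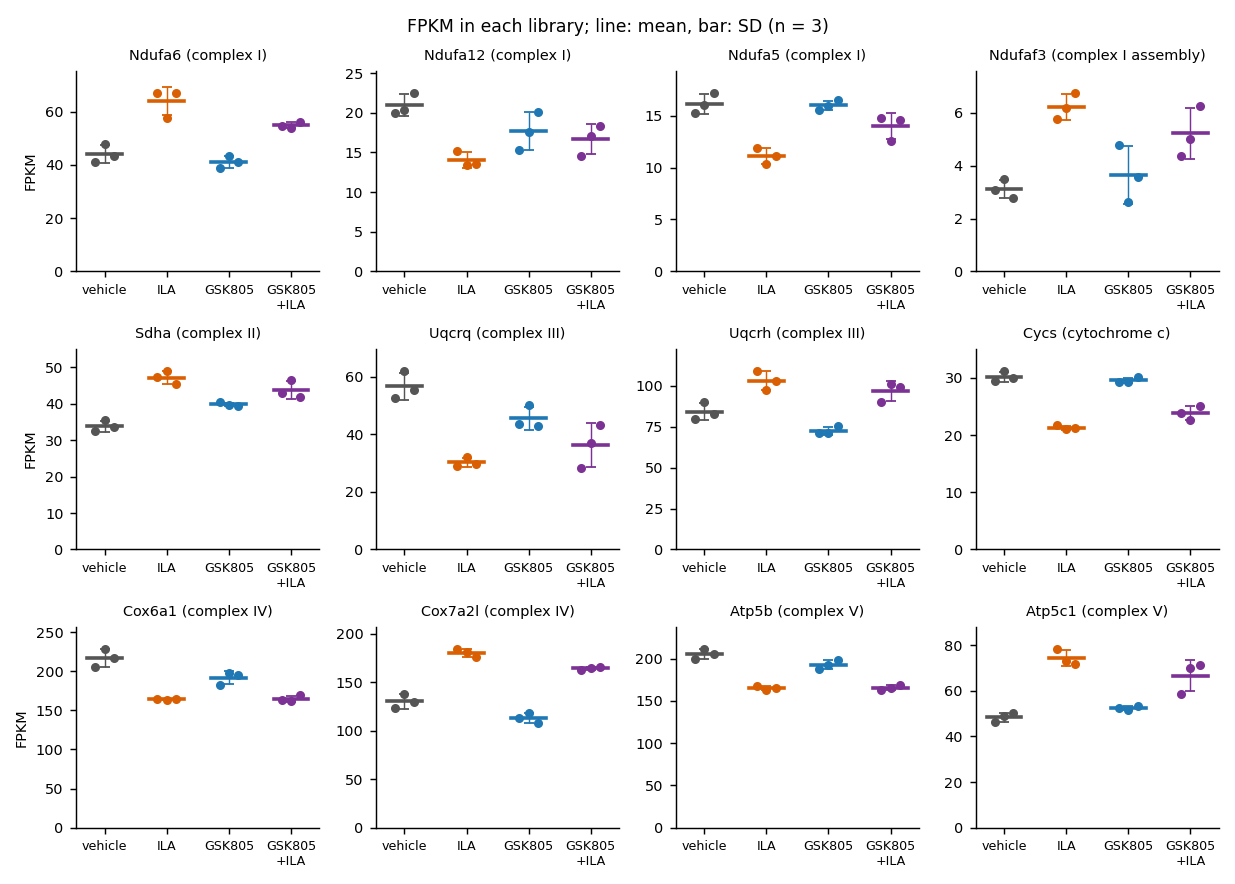
FPKM of 12 of the genes in every library, with the group mean (line) and SD (bar, n = 3). ILA libraries lie above vehicle for Ndufa6, Ndufaf3, Sdha, Uqcrh, Cox7a2l and Atp5c1 and below it for Ndufa12, Ndufa5, Uqcrq, Cycs, Cox6a1 and Atp5b, with no overlap in any panel. The 12 are picked examples. Over all members, ILA and vehicle libraries did not overlap for 43 of 88 (48.9%), against 62.8% of all genes.

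The split of ILA calls depended on how libraries were scaled, for the members and for all genes. In the counts above, 43.6% of the members' calls were rises, against 58.6% of the calls over all genes. With each library centred on its median, which lowered the median ILA change of all genes by 0.14 (log2), 9 members rose and 41 fell (18.0% rises, against 40.9% over all genes). With trends on gene length and GC content removed the split was 12 to 32 (27.3% against 46.9%), and with voom on recovered reads it was 11 to 31 (26.2% against 50.7%). The members' exons are short (median 1737 bases against 3487 for tested genes). Without ILA replicate 2, the library with haemoglobin reads, 18 members rose and 20 fell.

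GSK805 alone moved few of these genes with the FPKM scaled as deposited, though more were called lower under other scalings (below). Against vehicle, 2 of 88 rose (2.27%) and 7 fell (7.95%), where 15.7% of all tested genes rose and 7.08% fell, 22.8% in either direction. The median log2 fold change was -0.04 over members and 0.05 over all genes. Libraries did not overlap for 22 members (25.0%), against 38.7% of all genes. Of the 7 that fell, 4 belong to complex IV, 2 to complex III and 1 to complex I, and none to complex II or V.

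In complex IV, Cox4i1, a nuclear subunit next to the catalytic core, had 157, 179 and 177 FPKM in vehicle and 147, 141 and 143 FPKM with GSK805. The GSK805 values all lie lower, by 1.19-fold (log2 -0.25, SE 0.05, limma adjusted p = 0.00426). Cox7a2l fell 1.15-fold, from 131 ± 7.36 to 113 ± 4.67 FPKM (SD, n = 3, limma adjusted p = 0.00648), and Cox7c fell 1.18-fold (limma adjusted p = 0.0281, 9.7e-05 to 0.108 over the alternatives, 6 of which ended the call). Cox6a1 fell 1.13-fold (limma adjusted p = 0.013), a call that 3 alternative settings ended, quantile normalization among them (range over the alternatives 2.8e-04 to 0.887). The summed complex IV level was 1126 ± 54.8 FPKM in vehicle and 994.5 ± 13.8 FPKM with GSK805 (SD, n = 3).

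In complex III, Uqcrh fell 1.16-fold, from 84.3 ± 5.22 to 72.5 ± 2.37 FPKM (SD, n = 3, limma adjusted p = 0.0221, 3.6e-04 to 0.0815 over the alternatives). Uqcrfs1 fell 1.12-fold (limma adjusted p = 0.048, 0.00195 to 0.157 over the alternatives, 14 of which ended the call). Cyc1 rose 1.09-fold, from 43.0 ± 1.59 to 46.8 ± 1.31 FPKM (limma adjusted p = 0.0382, n = 3). That call was lost in most alternative settings, with adjusted p from 0.0338 to 0.539. Uqcrq had 45.5 ± 3.95 FPKM with GSK805 and did not pass (log2 -0.31, limma adjusted p = 0.115, n = 3). In complex II, Sdha rose from 33.9 ± 1.53 to 39.8 ± 0.493 FPKM, 1.17-fold (limma adjusted p = 0.00557, n = 3), with adjusted p from 0.00275 to 0.0522 over the alternatives, the highest with median centring. Sdhb, Sdhc and Sdhd did not pass (log2 0.05, 0.05 and -0.13), nor did Uqcrc1 (0.10). In complex I, Ndufa10, an accessory subunit, fell 1.12-fold. None of the 7 core subunits passed, with log2 values of 0.11 for Ndufs1 and 0.09 for Ndufv1. The largest complex I value, -0.27 for Ndufb9, and the largest among assembly factors, 0.27 for Ndufaf6, did not pass either (limma adjusted p = 0.397 and 0.151). Cycs had 29.5 ± 0.466 FPKM with GSK805, beside 30.2 ± 0.893 FPKM in vehicle (limma adjusted p = 0.62, n = 3). In complex V no gene passed: Atp5k had the largest value (log2 -0.23, limma adjusted p = 0.226), and Atp5a1 and Atp5b had 0.01 and -0.09. In complex IV, Cox5a (0.01) and Cox5b (-0.11) did not pass.

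With GSK805 the number of falls varied with scaling and with single libraries. Median centring gave 0 higher and 17 lower, the length and GC correction 1 and 10, and voom 1 and 19. All genes gave 1112 higher and 1648 lower, 1196 and 1516, and 1619 and 1730 in the same order. In the counts above they gave 2119 and 957. Over all genes, rises made up 68.9% of the calls in the counts above and 40.3%, 44.1% and 48.3% under these settings in the same order, so the balance of all genes moved too. Leaving out 1 library at a time gave 1 to 3 higher and 3 to 12 lower. The 12 came without vehicle replicate 1, the 3 without GSK805 replicate 1, and without vehicle replicate 2 or 3 it was 4.

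Adding ILA to GSK805-treated cells asks whether ILA moves these genes when GSK805 is present. Against GSK805 alone, 19 of 88 members rose with GSK805+ILA (21.6%) and 10 fell (11.4%), where 22.0% of all tested genes rose and 17.5% fell, 39.5% in either direction. The median log2 fold change was 0.06 for members and 0.02 for all genes. Libraries did not overlap for 36 members (40.9%), against 52.1% of all genes.

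The largest rise here was Cox7a2l, from 113, 118 and 108 FPKM to 163, 165 and 166 FPKM. The gap is wide beside either spread, a 1.45-fold rise (log2 0.54, SE 0.04, limma adjusted p = 3.7e-06). Ndufb10 rose 1.37-fold, Ndufa6 and Uqcrh 1.33-fold, and Atp5c1 1.26-fold (limma adjusted p = 0.00141, 6.2e-04, 2.1e-04 and 0.00212). Cox4i1 rose 1.22-fold, from 143 ± 3.15 to 175 ± 3.37 FPKM (limma adjusted p = 9.0e-04, n = 3). Among the falls, Cycs went from 29.3, 29.3 and 30.1 FPKM to 23.8, 22.7 and 25.1 FPKM. That fall of 1.23-fold had no overlap (log2 -0.30, limma adjusted p = 1.5e-04). Ndufaf2 fell 1.32-fold, Atp5g1 1.23-fold, Ndufb6 1.21-fold and Ndufs1 1.20-fold. Ndufs1 had 8.62, 9.27 and 9.07 FPKM with GSK805 and 7.46, 7.37 and 7.10 FPKM with both compounds, a small gap but one wider than either spread (limma adjusted p = 0.00209). Atp5b fell 1.17-fold, Cyc1 1.16-fold and Cox5a 1.14-fold (limma adjusted p = 2.8e-04, 8.9e-04 and 0.016, the last 0.00451 to 0.052 over the alternatives). Ndufaf3 rose 1.35-fold with an adjusted p of 0.0499 by limma, up to 0.181 over the alternatives, 18 of which ended the call. Ndufb9 had a log2 value of 0.46 and did not pass (limma adjusted p = 0.113), its GSK805 libraries ranging from 3.22 to 7.06 FPKM. Sdhb, Sdhc, Sdhd, Ndufv1, Uqcrc1, Uqcrfs1, Cox5b and Atp5a1 did not pass, with log2 values from -0.05 (Uqcrfs1) to 0.18 (Sdhb). Sdha rose 1.10-fold, and its adjusted p (0.0448, limma) ranged from 0.0175 to 0.271 over the alternatives. Median centring gave 12 higher and 17 lower (41.4% rises, against 41.6% over all genes), and the length and GC correction 14 and 18 (43.8% against 47.4%), beside 65.5% against 55.7% in the counts above.

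The effect of ILA without GSK805 and its effect with GSK805 use separate libraries. Of the 39 members called for ILA against vehicle, 38 had the same sign with GSK805 (97.4%, against 93.1% of all called genes) and 22 were also called (56.4%, against 59.3%). The exception in sign was Cox6c, at -0.13 without and 0.01 with GSK805. Of the 29 members called for ILA with GSK805, 22 were called without it (75.9%, against 87.0% of all genes so called). Across the 88 genes, which share libraries and are not replicates, the fold changes had a Pearson r of 0.82 and a Spearman rho of 0.84, and across all tested genes 0.79 and 0.77.

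**Figure D4:**
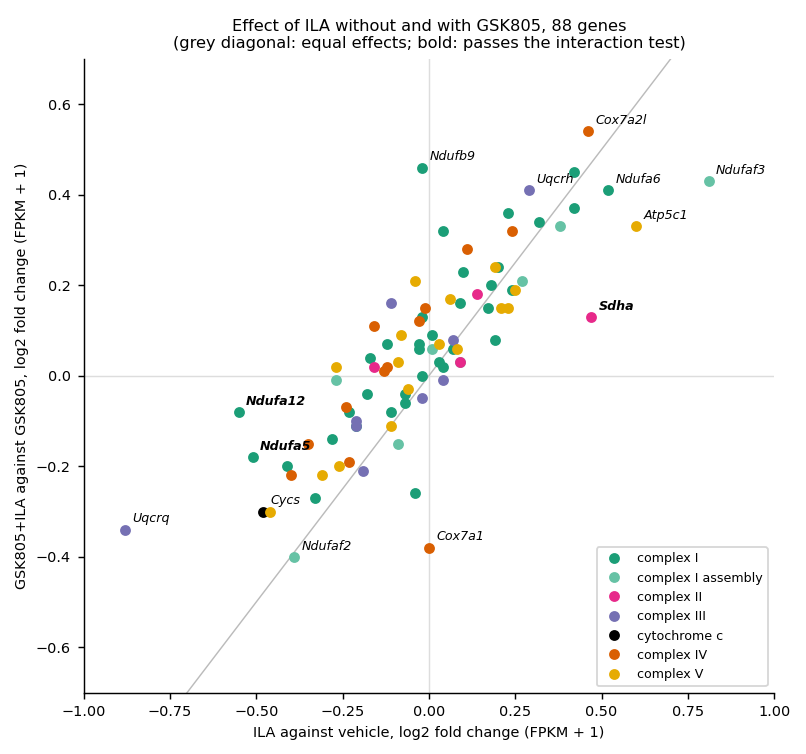
Log2 fold change of FPKM + 1 with ILA, without GSK805 (x axis) and with GSK805 (y axis), for the 88 genes coloured by complex. The 2 effects go together (Pearson r of 0.82), but points lie off the grey line of equal effects on both sides. Examples are Ndufaf3 (0.81 without and 0.43 with GSK805) and Cox7a2l (0.46 and 0.54). Ndufa12, Ndufa5 and Sdha, in bold, passed the interaction test, and a term that did not pass does not show equal effects.

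The difference between those effects was tested as an interaction. Of 88 members, 2 had a positive term (2.27%) and 1 a negative one (1.14%), where 5.15% and 8.70% of all tested genes did, 13.8% in either direction. Sdha was the negative one. ILA raised it by 0.47 without GSK805 and 0.13 with it, a difference of -0.34 on the log2 scale (SE 0.07, limma adjusted p = 0.00902), and the call held in every alternative setting (0.00227 to 0.0298). Ndufa12 had 15.3, 17.6 and 20.1 FPKM with GSK805 and 14.6, 17.1 and 18.3 FPKM with GSK805+ILA. These overlap, unlike its vehicle and ILA libraries, and the interaction was 0.47 (SE 0.14, limma adjusted p = 0.0479). For Ndufa5 it was 0.33 (SE 0.10, limma adjusted p = 0.0492). Both calls were marginal, with adjusted p from 0.00364 to 0.124 and from 0.0222 to 0.121 over the alternatives, and leaving out single libraries, ILA replicate 2 among them, ended both. The largest term that did not pass was 0.54 for Uqcrq (limma adjusted p = 0.0756), whose GSK805+ILA libraries ranged from 28.2 to 43.4 FPKM. In the other complexes the largest terms, 0.48 for Ndufb9, -0.39 for Cox7a1, -0.38 for Ndufaf3 and 0.29 for Atp5k, did not pass, nor did Cycs at 0.19. Among the defining subunits, Ndufs1, Ndufv1, Sdhb, Sdhc, Sdhd, Uqcrc1, Uqcrfs1, Cyc1, Cox4i1, Cox5a, Cox5b, Atp5a1 and Atp5b did not pass, with terms from -0.23 (Ndufs1) to 0.17 (Sdhd and Cox4i1). Median centring gave 11 positive and 1 negative terms, where all genes gave 1289 and 750, and voom 8 and 1, where they gave 1359 and 1214. Over all genes positive terms were thus 63.2% and 52.8% of calls under these settings, beside 37.2% in the counts above. Leaving out vehicle replicate 1 gave 5 and 1.

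Set against vehicle, both compounds together raised 19 members (21.6%) and lowered 17 (19.3%), where 31.8% and 20.3% of all tested genes rose and fell, 52.1% in either direction. The median was -0.01 for members and 0.06 for all genes, and libraries did not overlap for 41 members (46.6%), against 59.2%. This comparison shares its vehicle libraries with those above. Ndufaf3 rose 1.50-fold, Atp5c1 and Ndufaf7 1.36-fold, Ndufb10 1.34-fold and Ndufa13 1.32-fold. Uqcrq fell 1.57-fold, to 28.2, 37.0 and 43.4 FPKM, all below the lowest vehicle value of 52.6 FPKM (limma adjusted p = 0.00156). Ndufa1 fell 1.32-fold, Cox6a1 1.31-fold, Ndufaf2 1.29-fold and Cycs 1.26-fold. In complex II, Sdha rose 1.28-fold and Sdhb 1.17-fold (limma adjusted p = 6.6e-05 and 0.0137, the latter 0.00453 to 0.312 over the alternatives), while Sdhc (log2 0.09) and Sdhd (-0.12) did not pass. Uqcrfs1 fell 1.16-fold and Cox5a 1.13-fold (limma adjusted p = 0.00519 and 0.0158, the latter up to 0.0675 over the alternatives), and Uqcrc1, Cyc1, Cox4i1, Cox5b and Atp5a1 did not pass (log2 0.09, -0.09, 0.03, -0.09 and -0.02). Atp5b stood at 165 ± 3.03 FPKM, against 165 ± 2.92 FPKM with ILA alone and 205 ± 6.01 FPKM in vehicle (SD, n = 3). Of the 7 complex I core genes, 4 rose, among them Ndufs7, Ndufv2 and Ndufv1, and Ndufs1 fell. The call of Ndufv1 (limma adjusted p = 0.0488) ended in 16 alternative settings, with adjusted p from 0.0238 to 0.972. That of Ndufs1 (limma adjusted p = 0.0247) ended in 5, with adjusted p from 6.5e-04 to 0.101. Cox7a1, near the limit of detection with 11 to 31 reads, was called lower (limma adjusted p = 0.0454, 0.0168 to 0.168 over the alternatives). Median centring gave 8 higher and 35 lower (18.6% rises, against 40.2% over all genes), the length and GC correction 14 and 24 (36.8% against 45.7%), and voom 11 and 26 (29.7%, where all genes gave 3663 and 3668), beside 52.8% against 61.1% in the counts above.

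GSK805+ILA differed from ILA alone in 8 members, 7 higher (7.95%) and 1 lower (1.14%), where 9.92% and 8.64% of all tested genes were, 18.6% in either direction. The median was 0.03 for members and 0.02 for all genes, and libraries did not overlap for 23 members (26.1%), against 37.2%. Uqcr11, a small subunit of complex III, rose from 25.8, 27.0 and 25.4 FPKM to 30.5, 34.7 and 35.1 FPKM. Its groups do not overlap, and the rise was 1.27-fold (log2 0.34, limma adjusted p = 0.0158). The complex I core subunit Ndufs7 rose 1.24-fold, the accessory subunit Ndufs6 1.21-fold and Ndufa5 1.24-fold (limma adjusted p = 0.0213, 0.0116 and 0.0103). Over the alternatives the adjusted p reached 0.0812 for Ndufs7, 0.0651 for Ndufa5 and 0.063 for Uqcr11. Atp5g1 and Cox7b rose 1.16-fold. Cox7a1 had the largest value of all members, -0.56, and did not pass (limma adjusted p = 0.0913). Nor did Ndufaf3 (-0.23). Ndufs1, Ndufv1, the 4 Sdh genes, Uqcrc1, Cyc1, Cox4i1, Cox5a, Cox5b, Atp5a1 and Atp5b did not pass, with log2 values from -0.12 (Ndufs1) to 0.10 (Cyc1). Cycs rose 1.11-fold, from 21.3 ± 0.337 to 23.9 ± 1.16 FPKM (limma adjusted p = 0.0214, 0.0151 to 0.0834 over the alternatives, n = 3), and its mean stayed below that of vehicle. The Rieske gene Uqcrfs1 fell 1.14-fold, from 76.3 ± 1.20 to 66.8 ± 3.87 FPKM (limma adjusted p = 0.028, 0.00793 to 0.0961 over the alternatives, n = 3). The calls of Cycs and Uqcrfs1 each ended in 6 alternative settings. Quantile normalization gave 7 higher and 3 lower (70.0% rises, against 52.1% over all genes), the length and GC correction 7 and 4 (63.6% against 49.8%), and voom 6 and 5 (54.5% against 47.3%), beside 87.5% against 53.5% in the counts above. Without ILA replicate 2 it was 4 and 1, without GSK805+ILA replicate 2 it was 4 and 0, without GSK805+ILA replicate 3 it was 3 and 1, and without vehicle replicate 1 or 2 it was 7 and 4.

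Added over all 88 genes, the level differed little between groups. The sum was 3705 ± 145 FPKM in vehicle, 3635 ± 95.3 with ILA, 3479 ± 37.8 with GSK805 and 3633 ± 107 with GSK805+ILA (SD, n = 3), or 1.15%, 1.12%, 1.13% and 1.14% of all FPKM in a library. The GSK805 libraries (3438 to 3512 FPKM) lie below the vehicle libraries (3546 to 3830 FPKM), but not as a share of all FPKM. Complex II summed to 131.5 ± 7.51 FPKM in vehicle and 143.5 ± 3.36 FPKM with ILA. Complex III libraries summed to 494.2 to 541.9 FPKM in vehicle and 474.0 to 496.8 FPKM with ILA, ranges that overlap. For complex V the group means were 893.9, 876.8, 860.4 and 865.0 FPKM in the same order.

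**Figure D5:**
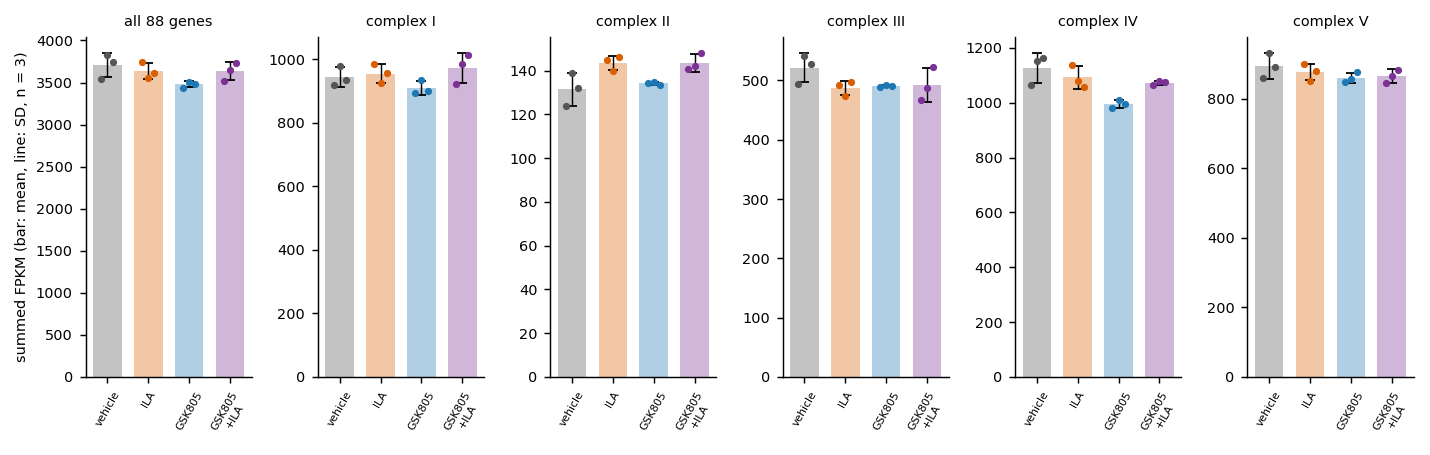
Summed FPKM of all 88 genes and of 5 complexes in each library (points), with the group mean (bar, from 0) and SD (line, n = 3). The means over all 88 genes run from 3479 FPKM with GSK805 to 3705 FPKM in vehicle.

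Other genes of respiration were examined in lists written from textbook roles. Their counts stand beside the shares of all tested genes, which with ILA were 33.9% higher and 24.0% lower, with GSK805 15.7% and 7.08%, and with GSK805+ILA against GSK805 22.0% and 17.5%. Of 33 tested assembly factors of the chain other than the Ndufaf genes, 15 rose and 6 fell with ILA, with a median log2 fold change of 0.15 against 0.06 for all genes. Bcs1l, the chaperone that inserts the Rieske protein into complex III, rose 1.59-fold with ILA, from 2.37 ± 0.427 to 4.35 ± 0.0650 FPKM (limma adjusted p = 3.8e-04, n = 3). Sco2, a copper chaperone of complex IV, fell 1.50-fold, from 4.40 ± 0.537 to 2.58 ± 0.265 FPKM (limma adjusted p = 4.0e-04, n = 3). With GSK805 alone 6 of the 33 rose and 1 fell, the latter Cox20, a complex IV assembly factor, at 1.38-fold lower. Against GSK805 alone, 8 of the 33 rose and 1 fell with GSK805+ILA, among them Coa6, 1.42-fold higher. These small lists were not tested as sets.

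Of 14 tricarboxylic acid cycle genes, which supply the chain with NADH and succinate, 4 rose and 3 fell with ILA, against 33.9% and 24.0% of all tested genes. Idh2, the mitochondrial NADP-dependent isocitrate dehydrogenase, rose 2.12-fold, from 3.06 ± 0.427 to 7.57 ± 0.303 FPKM, a larger change than in any respiratory chain member (limma adjusted p = 5.5e-06, n = 3). Dld, a subunit shared by several dehydrogenase complexes, fell 1.42-fold. Of 7 genes for ATP export and phosphate import, 3 rose and 1 fell with ILA. Slc25a4, which exchanges ADP for ATP across the inner membrane, rose 1.44-fold, from 43.9 ± 0.391 to 63.4 ± 1.95 FPKM (limma adjusted p = 9.4e-07, n = 3), and Vdac1, the outer membrane channel, rose 1.41-fold. Of 15 genes of ubiquinone synthesis and other ubiquinone reduction, 4 rose and 3 fell with ILA, Coq10a 1.36-fold higher and Coq2 1.34-fold lower.

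Of 19 genes that maintain or express the mitochondrial genome, 5 rose and 6 fell with ILA, and of all tested genes 33.9% and 24.0% did. Tfb2m, a factor for transcription of mitochondrial DNA, fell 1.71-fold, from 20.1 ± 0.736 to 11.4 ± 0.957 FPKM (limma adjusted p = 7.2e-07, n = 3), and Polg2, the accessory subunit of the mitochondrial DNA polymerase, rose 1.59-fold. Of 9 tested regulators of respiratory genes, 2 rose and 5 fell with ILA, beside those same shares. Gabpb1 fell 1.30-fold and its relative Gabpb2 rose 1.31-fold, both partners of Gabpa in GABP (limma adjusted p = 3.5e-05 and 6.7e-05). Gabpa itself had 26.8 ± 1.77 FPKM in vehicle and 20.8 ± 0.534 FPKM with ILA (SD, n = 3). When ILA was added to GSK805, Gabpa fell 1.21-fold (limma adjusted p = 7.1e-04). The coactivator Ppargc1b was tested only because its GSK805+ILA mean reached 1.11 FPKM. Below that limit, it had 0.317 ± 0.0723 FPKM in vehicle and 0.791 ± 0.0663 FPKM with GSK805. On the log2(FPKM + 1) scale, which understates such a change, this was 1.36-fold higher (limma adjusted p = 0.0254, n = 3). Among the interaction terms of these lists, Vdac1 (-0.28) and Slc25a4 (-0.23) were negative, and Tfb2m (0.35), Cox20 (0.51) and Coq2 (0.39) positive (limma adjusted p = 0.0141, 0.0239, 0.0213, 0.0138 and 0.043). Idh2 also rose 1.56-fold and Tfb2m fell 1.34-fold when ILA was added to GSK805 (limma adjusted p = 6.7e-04 and 1.9e-04). Myc was 1.30-fold higher in GSK805+ILA than in ILA alone (limma adjusted p = 0.0121). Its means were 126 FPKM in vehicle, 98.2 with ILA, 129 with GSK805 and 127 with GSK805+ILA.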

How the data were processed

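RNA-seq values of 12 libraries were used, 3 in each of 4 groups. The authors deposited FPKM per gene and library. Per the submitters' processing notes, FastQC 0.11.2 and Bowtie were used with mm10; no counter, annotation or strand setting is named there. From the deposited FPKM, log2(FPKM + 1) was computed, so a fold change understates that of low genes. The 13511 genes that averaged 1 FPKM or more in any group were tested with limma 3.58.1 in R 4.3.3, with 1 mean per group over all 12 libraries, trended and robust moderation, and Benjamini-Hochberg adjustment over all tested genes. Genes with an adjusted p below 0.05 were called.

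Gene lengths came from GENCODE vM21. With them, 98.7% of values gave whole reads within 0.1 of a read, and 13072 of the tested genes (96.8%) entered the voom fit. Replicates of a group had Pearson r of 0.983 to 0.987 and differed by more than counting noise. The scripts were tested on simulated data.

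The members and gene lists were chosen with earlier results of these data known. Genes named in each comparison were 16 defining subunits, of the called members whose groups do not overlap the 5 with the greatest rise and the 5 with the greatest fall, the member of each complex with the largest change, tissue-restricted isoforms, the 5 highest members, and up to 2 called genes of each other list (some of these are left out for length); further called members were named after their values were seen. Mitochondrially encoded genes were not analysed here, and values of 1 member and 1 marker gene are not reported, though counts and sums include them. Of the members, 16 have a near-identical copy elsewhere (at least 95% identity over at least 50% of the transcript) and 37 overlap another gene, 29 on the opposite strand, so their values are less certain.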

Additional observations from a re-analysis of the deposited data

Results flagged for a closer look

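The effect of ILA differed with GSK805 for 3 members by the interaction term of the limma fit, adjusted over all tested genes. That is 3 of 88, where 13.8% of all tested genes had such a term. For Ndufa12 the term was 0.47 on the log2 scale (SE 0.14, limma adjusted p = 0.0479). For Ndufa5 it was 0.33 (SE 0.10, limma adjusted p = 0.0492), and for Sdha -0.34 (SE 0.07, limma adjusted p = 0.00902). The calls of Ndufa12 (adjusted p from 0.00364 to 0.124 over the alternatives) and Ndufa5 (0.0222 to 0.121) ended in 13 and 12 alternative settings, and that of Sdha (0.00227 to 0.0298) in none. Why they differ was not tested.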

How the results depend on the processing

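Counts are given as members higher and lower. Calls over all genes moved with the settings too, so a changed member count alone is not a result about the members. Without a filter, for example, GSK805 gave 1436 higher and 761 lower over all genes, beside 2119 and 957 in the main fit. The interaction gave 368 positive and 699 negative terms, beside 696 and 1175. Median centring gave 9 and 41 for ILA, 0 and 17 for GSK805, 8 and 35 for GSK805+ILA against vehicle, 12 and 17 against GSK805, and 11 positive interactions. With voom on recovered reads they were 11 and 31, 1 and 19, 11 and 26 for the comparisons with vehicle, with 5 lower against ILA and 8 positive interactions. Removing length and GC trends gave 1 higher for GSK805, 18 lower for GSK805+ILA against GSK805, 4 lower against ILA and 4 positive interactions. Quantile normalization gave 3 lower against ILA and 1 positive interaction. Without a filter GSK805 gave 1 and 3, with 0 lower against ILA and 0 positive interactions. A filter of 5 FPKM gave 4 lower against ILA. Fitting only the groups compared gave 1 higher for GSK805 and 4 lower against ILA. Without trended and robust moderation there were 1 higher for GSK805 and 0 positive interactions. The cause of these differences was not tested.

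Leaving out 1 library at a time gave 14 to 20 higher and 19 to 26 lower for ILA, 1 to 3 and 3 to 12 for GSK805, 13 to 21 and 12 to 22 for GSK805+ILA against vehicle, 14 to 20 and 10 to 12 against GSK805, 3 to 8 and 0 to 4 against ILA, and 0 to 5 positive and 1 to 1 negative interactions. The matching counts over all genes are not given here. Of 186 values of named members, 41 changed sign in some setting, 0 of them called in the report. With GSK805, Atp5b went from -0.09 to 0.10 (log2) with quantile normalization, where it was called.

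With the replicate number as a block there were 16 and 24 for ILA, 1 and 4 for GSK805, 17 and 16 for GSK805+ILA against vehicle, 17 and 12 against GSK805, 7 and 2 against ILA, and 4 positive and 1 negative interactions. No pairing by number was visible: the 18 same-number pairs correlated between -0.08 and 0.08, and 1 of 12 libraries correlated best with its own number in every other group. With 3 libraries a group, this cannot exclude pairing. Depth limits the lowest members, such as Cox7a1, with as few as 11 reads in a library.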
